A study of Caenorhabditis elegans with 19 samples.

Results

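The peaks described here are the genomic regions to which LIN-14 was mapped in second-stage (L2) larvae of Caenorhabditis elegans by chromatin immunoprecipitation and sequencing (ChIP-seq) against control. Every row of the authors' annotated L2 peak table was taken, which gave 8333 peaks of the 45351 annotated for both stages, and each was joined to its width and summit in the L2 peak list. The other 37018 peaks belong to the first larval stage (L1) and serve as the comparison. The series concerns temporal transitions in neurons after their last division, but the chromatin came from whole larvae, so a peak cannot be placed in a cell type.

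All L1 and L2 LIN-14 libraries came from a strain in which GFP is fused to the C terminus of the endogenous gene (lin-14::gfp, allele cc2841). L1 larvae were collected 8 ± 1 h and L2 larvae 21 ± 1 h after plating on food, and chromatin was captured on beads that bind GFP. Each stage has 5 ChIP and 4 input libraries, and 1 further L1 ChIP library came from the untagged N2 strain. The N2 library is not analysed here, so regions that the beads capture without the tag were not set aside. The peaks were called on libraries merged per stage, so no value per library stands behind a peak, depth per library is unknown, and no difference between the stages' peak lists carries a replicate test.

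LIN-14 is a nuclear DNA-binding protein of the heterochronic pathway, the set of regulators that tells larval cells which stage-specific fate to adopt. It specifies early fates, and it declines after L1 as the microRNA lin-4 represses its messenger RNA. Loss of LIN-14 makes cells adopt later fates early, and its persistence makes them repeat early ones.

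The L2 peaks were narrow and modest in height. They had a median width of 248 bp (interquartile range 206 to 325) and together covered 2.41 Mb, and 31 were 1 kb or wider. Fold enrichment over control at the summit, a ratio given by the authors' peak caller and used here only to describe and rank peaks within a list, ranged from 1.21 to 2.25 with a median of 1.54. Only 10 L2 peaks reached a fold enrichment of 2. The -log10 q-value, also the authors', had a median of 3.74 and a maximum of 15.9. It was at least 3 for 6116 peaks and at least 5 for 1705. Wider peaks tended to be higher, with a Spearman's rho between width and fold enrichment of 0.214 across the 8333 peaks, which all share the same merged libraries. Coordinates below start from 1 and follow the files, and their genome build is not stated in the labels or headers.

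The highest peaks lay at genes of unrelated kinds. The top peak (chromosome V, 724647 to 727103) had a fold enrichment of 2.25, was 2457 bp wide and was assigned to fbxb-72, a member of the F-box family of ubiquitin ligase adaptors. Relative to the fbxb-72 start its near edge lay at -694 bp and its summit at -2371 bp, both upstream. Another listed start was nearer to the summit, which lay 1780 bp downstream of it and inside a listed transcript. The next was at the non-coding RNA gene F19G12.12 (X, 1408806 to 1410352) with 2.09, and covered that gene's start. T19D12.1 followed with 2.08 and Y5H2A.4 with 2.06. The non-coding RNA gene K02F3.13 and the ABC transporter gene wht-8 were tied at 2.04. The wht-8 summit lay 250 bp downstream of the start. Among genes of known function, asp-1, an aspartyl protease gene of the intestine, had a peak of 1.99 that was 1451 bp wide and spanned its start. The ABC transporter gene abt-1 had 1.97, ehs-1, an endocytic adaptor of synaptic vesicle recycling, had 1.96, and the chemoreceptor gene sra-24 had 1.98. The peak at cla-1, which encodes an active zone protein of presynaptic terminals, had 1.95 and lay in the last of its 32 exons. Of the 20 protein-coding genes with the highest peaks, 11 had the summit downstream of the assigned start, 13 had the peak edge within 1 kb of it, and 16 had the summit inside a transcript. Among all L2 peaks assigned to coding genes, 74.4% had the summit downstream of the nearest start. The edge lay within 1 kb for 48.0% and the summit inside a transcript for 85.2%. On the X chromosome lay 1 of these 20, and 16.2% of all L2 peaks.

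L2 summits lay mainly downstream of transcript starts and inside transcripts. Measured from the nearest of the 20705 transcripts that the authors' tables list, 68.5% of summits were downstream of the start (95% Wilson interval 67.5 to 69.5, which here and below covers counting error over peaks only) and 31.5% upstream (30.5 to 32.5). An even grid of 1001558 positions, 1 every 100 bp, gave 52.5% downstream and 47.5% upstream. L1 summits gave 65.8% downstream. A listed transcript contained 79.6% of L2 summits (78.8 to 80.5), against 74.8% of L1 summits (74.3 to 75.2) and 53.5% of grid positions. The list holds only transcripts to which the authors assigned a peak or site, so a summit in an unlisted gene counts as outside. As a measure of this, 91.1% of the peaks that the authors placed in exons had a summit in a listed transcript. The list covers 13931 of 19983 protein-coding genes, and a grid position in an unlisted gene also counts as outside. Summits are near or inside listed transcripts partly because peaks made the list. The gaps between summits and grid, here and below, therefore do not measure enrichment over the whole genome.

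The surplus over the grid was spread evenly over the first kilobase downstream of a start and was smaller beyond it. In successive 250 bp steps over that kilobase L2 had 7.91%, 7.79%, 7.43% and 7.25% of summits. The grid had 4.96%, 4.73%, 4.52% and 4.18%. Within 1 kb downstream of a start lay 30.4% of L2 summits and 18.4% of grid positions, and between 1 and 3 kb downstream 28.2% and 21.0%. Within 1 kb upstream lay 14% of L2 summits (13.2 to 14.7), below the 17.4% of the grid and the 17.1% of L1. In the 250 bp just downstream of a start the L2 share was 7.91% (7.35 to 8.51) and the L1 share 11% (10.7 to 11.3), while the grid had 4.96%. In the 250 bp just upstream the shares were 3.96% for L2 (3.56 to 4.40), 5.49% for L1 and 4.89% for the grid. Peaks that covered the assigned start itself made up 6.32% of L2 peaks (527 peaks) and 10.9% of L1 peaks. L1 peaks were wider, with a median of 292 bp, and the part of width in that last difference was not tested. The median distance from an L2 summit to the nearest start was 1162 bp, from an L1 summit 1006 bp and from a grid position 1528 bp.

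**Figure D1:**
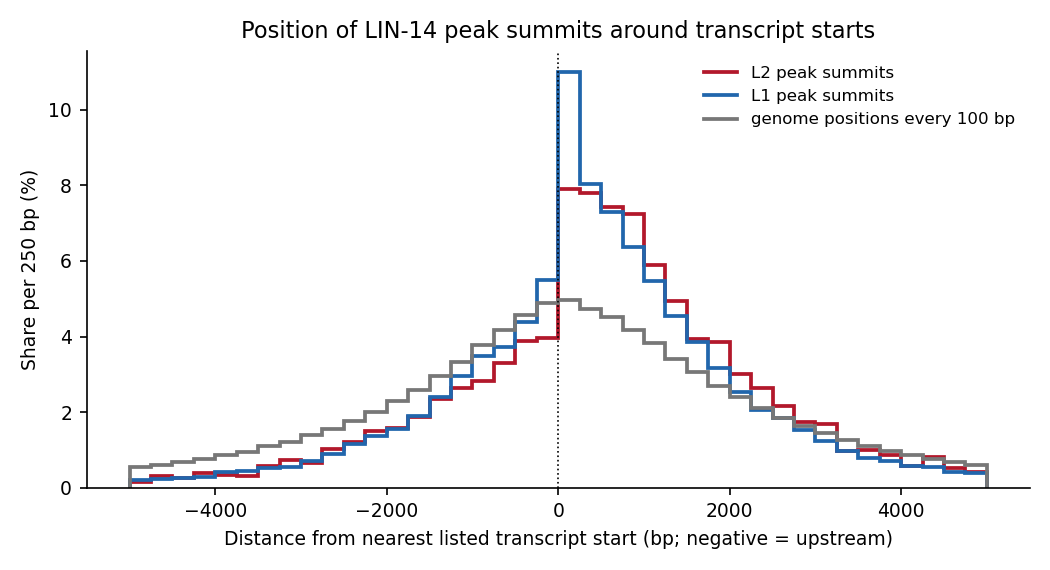
Share of positions (vertical axis, % per 250 bp) by distance from the nearest listed transcript start (horizontal axis, bp, negative upstream) for L2 peak summits, L1 peak summits and genome positions every 100 bp. The L2 line stands above the grid from the start to beyond 2 kb downstream and below it upstream, and lacks the sharp L1 rise in the first 250 bp downstream (7.91% against 11%).

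The authors' promoter classes do not separate these sides, since they count distance in both directions and take precedence over exons and introns. In the L2 table the largest distance in a promoter class was 2999 bp and the smallest in any other class 3002 bp. The class within 1 kb held 4116 peaks (49.4%, 48.3 to 50.5), that of 1 to 2 kb 24.6% and that of 2 to 3 kb 12.9%. Of the 4116 in the nearest class, 69.0% had the summit downstream of a start and 79.9% had it inside a listed transcript. Across all promoter classes together 80.4% of summits were inside a transcript. Fold enrichment hardly differed by class, with class medians between 1.53 and 1.56.

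The kind of gene to which a peak was assigned went with its position. Of 6593 L2 peaks assigned to protein-coding genes, 25.6% had the summit upstream of the nearest start (24.6 to 26.7) and 85.2% had it inside a transcript. Of the 1740 peaks assigned to non-coding or unmatched genes, 53.7% were upstream (51.3 to 56.0), and 58.4% were inside. Within coding genes, 64.2% of peaks had the summit in the very transcript to which they were assigned. Along those transcripts, cut into 4 equal parts from start to end, 30.8%, 34.7%, 25.0% and 9.52% of the 4233 summits fell into the successive parts. The last part of the transcript thus held the fewest L2 summits. Assignment goes to the nearest start, so summits far down a long transcript are more often given to a neighbour, and the part of this in the low last share was not tested.

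Exons held 766 L2 peaks, which is 9.19% (8.59 to 9.83), and 6.57% of L1 peaks (6.32 to 6.83). Because of the precedence of the promoter classes, these are only the exonic peaks more than 3 kb from any start. Among the 1093 L2 peaks at such distances, 70.1% were in exons (67.3 to 72.7), 10.7% in introns and 13.2% were distal intergenic. The 4028 L1 peaks at such distances had 60.4% in exons (58.9 to 61.9), 15.1% in introns and 16.2% distal. The exonic share of all L2 peaks was 10.7% in the top group when peaks were ranked by fold enrichment and cut into 5 equal groups, and 8.34% in the bottom one. Within this class the first exon held 2.48% of exonic L2 peaks and the last 1.57%, exons 4 to 10 held 51% and later exons 36.3%. The median exonic L2 peak was in exon 8. In L1 the first exon held 4.89% and the last 2.14%, with a median of exon 7. The class rules favour internal exons, since peaks within 3 kb of a start are excluded and 3' UTR peaks (24 in L2) are classed apart. These shares therefore do not describe all exons.

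Genes with several exonic L2 peaks included structural genes of the muscle, the epidermis and the extracellular matrix. The 766 peaks lay in exons of 451 genes, of which 313 had 1, and 65 genes with 3 or more held 307 peaks (40.1%). These genes were singled out by their counts after the values were seen. Only a gene that reaches more than 3 kb past a start can hold such peaks, so the counts favour long genes. The annotation gives 57 exons for ttn-1, 62 for him-4 and 47 for dig-1. The counts were not set against gene length, so they do not show that these kinds of genes are preferred. The muscle genes were ttn-1, which encodes a titin-like giant protein of the sarcomere, with 14 exonic peaks, unc-22 (twitchin) with 12 and unc-89 (obscurin) with 7. The epidermal and attachment genes were mua-3 with 11 and mup-4 with 6, which encode transmembrane proteins that fasten muscle to cuticle through the epidermis, and let-805 (myotactin) with 6. The matrix and adhesion genes were dig-1, a giant matrix protein, with 8, him-4 (hemicentin) with 6, the Fat-like cadherin gene cdh-4 with 6, and lam-3, a laminin alpha chain, with 5. The lipoprotein receptor genes lrp-1, which is needed for molting, and lrp-2 had 13 and 11. Long intracellular proteins were there too: trr-1 (a TRRAP-like chromatin cofactor) had 8, the polyketide synthase gene pks-1 had 7, and the dynein heavy chain gene dhc-1 and the spectrin gene sma-1 had 6 each. In L1 the counts were 33 in dig-1, 23 in ttn-1, 17 in pks-1 and 13 in him-4, all above L2, but 7 in unc-22 and 8 in mua-3, below L2. L1 peaks are wider and can join neighbouring summits, so fewer peaks do not show less binding.

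**Figure D2:**
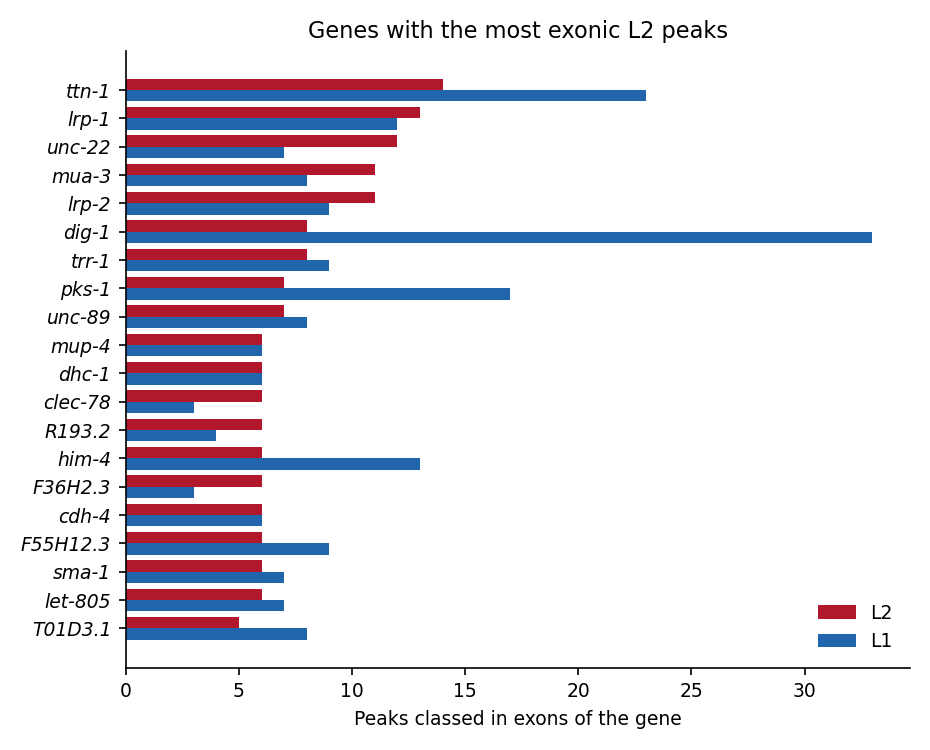
Number of peaks that the authors placed in exons of each gene (horizontal axis), for the 20 genes with the most exonic L2 peaks, in L2 and L1. The L2 bars run from 14 in ttn-1 down to 5, and the L1 bar is longer for dig-1 (33) and ttn-1 (23) and shorter for unc-22 (7) and mua-3 (8).

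The highest exonic peaks, a tied pair with a fold enrichment of 2.00, lay in exon 7 of lgc-51, a ligand-gated channel gene, and in exon 8 of cbp-1, which encodes the CBP/p300 acetyltransferase. Others lay in exon 10 of ccep-290, a cilium transition zone gene (1.98), in exon 9 of fig-1, a gene of the glia-neuron interface (1.94), and in exon 9 of mup-4 (1.89). The widest exonic peak, 2000 bp, lay in exon 5 of lam-3 with 1.83.

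For 50.8% of exonic L2 peaks (47.2 to 54.3) the gene holding the exon was not the gene to which the peak was assigned. The non-coding RNA gene ZK617.21 led the list of assigned genes with 11 peaks, of which 9 were in exons of unc-22. The piRNA gene 21ur-12960 had 7 assigned peaks, 5 of them in exons of lrp-1. All 6 peaks of unc-47, the vesicular GABA transporter gene and a marker of GABA neurons, lay in exons 29 to 32 of mua-3, with fold enrichments of 1.47 to 1.83. Of W02C12.2's 8 peaks, 5 lay in exons of the lectin gene clec-78.

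Peaks recurred within genes. The L2 peaks were assigned to 6247 genes, of which 4788 had 1 peak, 1069 had 2, 254 had 3 and 136 had 4 or more. After ZK617.21, fig-1, him-4 and mup-4 had 9 each, and let-805, lrp-1, lrp-2, W02C12.2 and the non-coding C54G7.14 had 8 each. The median gap between neighbouring L2 peaks was 5851 bp. Joined at gaps of at most 1 kb, 2589 peaks (31.1%) formed 1099 clusters, 72 of which had 4 or more peaks. The largest held 11 peaks over 7938 bp at mua-3 (III, 10175064 to 10183001), followed by 9 over 7194 bp at fig-1 (V, 10971184 to 10978377) and 9 over 5411 bp at mup-4 (III, 7483364 to 7488774).

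L2 peaks were spread over all 6 nuclear chromosomes at similar density, between 76.5 per Mb on X and 89.6 per Mb on V. The density was 81.4 on I, 89.1 on II, 84.2 on III and 77.9 on IV. Relative to the autosomes (84.6 per Mb), X had 0.903 times as many peaks per Mb (95% interval 0.852 to 0.957, counting error only). Per protein-coding gene the order turned: X had 49.6 L2 peaks per 100 coding genes and the autosomes 40.5, a ratio of 1.23, since X has fewer genes per Mb. The share of coding genes with an L2 peak was 26.2% on X and 24.3% on the autosomes. The number of L2 peaks came to 19.7% of the number of L1 peaks on X, and to 22% to 24.3% on the 5 autosomes. X held 13.3% of the top group of L2 peaks by fold enrichment and 17.2% of the bottom group.

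The chromosome middles were denser than the ends. With each chromosome cut into 5 equal stretches, the inner 3 stretches of the autosomes had 96.2 L2 peaks per Mb and the outer 2 had 67.3. On X the densities were 82.1 and 68. L1 peaks had 399 and 315 per Mb on the autosomes, so the gap was proportionally larger in L2. The lowest L2 density was 45.6 per Mb in the last stretch of IV and the highest 107 per Mb in the middle of III.

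The exonic share varied more between chromosomes than the density did. It was 15.4% on I (13.5 to 17.6), 13.3% on III (11.4 to 15.3) and 10.5% on X (8.97 to 12.2), but 7.43% on II, 6.25% on IV and 5.07% on V (4.16 to 6.15). The L1 shares were lower on every chromosome, with 10.9% on I, 10.5% on III, 7.39% on X, 4.59% on II and IV, and 3.56% on V. Within chromosomes the extremes were 20.5% in the second stretch of I and 0 of 159 peaks in the last stretch of IV.

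**Figure D3:**
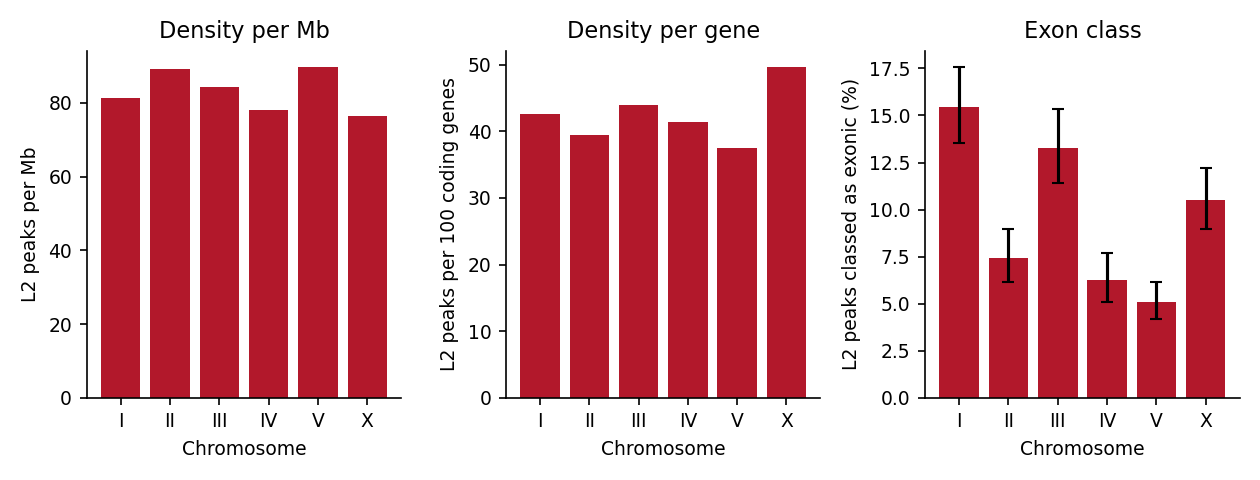
L2 peaks per Mb (left), L2 peaks per 100 protein-coding genes (middle) and share of L2 peaks placed in exons (right, %, with 95% Wilson intervals) by chromosome. X has the lowest bar per Mb (76.5) and the highest per gene (49.6), and the exonic share is highest on I (15.4%) and lowest on V (5.07%).

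Of 19983 protein-coding genes, 4904 (24.5%) had an assigned L2 peak, 14.3% had one within 1 kb of the start, and among all 46926 annotated genes the share was 13.3%. An L1 peak was assigned to 69.2% of the coding genes. These percentages are the background for every gene group below, and no group was tested. The groups were chosen with earlier results of these data known. Longer genes had peaks more often. Among coding genes listed in the tables, sorted by transcript length into 5 groups, the share with an L2 peak was 29.8%, 34.1%, 33%, 37.7% and 41.4% from the shortest to the longest. Per 100 kb of transcript length the order turned, from 49.8 L2 peaks in the shortest group to 7.44 in the longest. The median transcript was 2296 bp long for genes with an L2 peak and 1995 bp for the 9027 listed genes without. Several groups described here have long genes, with a median transcript of 6160 bp for the Hox genes, 5893 bp for synaptic genes, 5244 bp for the insulin pathway, 4838 bp for transmitter identity genes, 4541 bp for the Wnt pathway and 4392 bp for small RNA pathway genes.

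**Figure D4:**
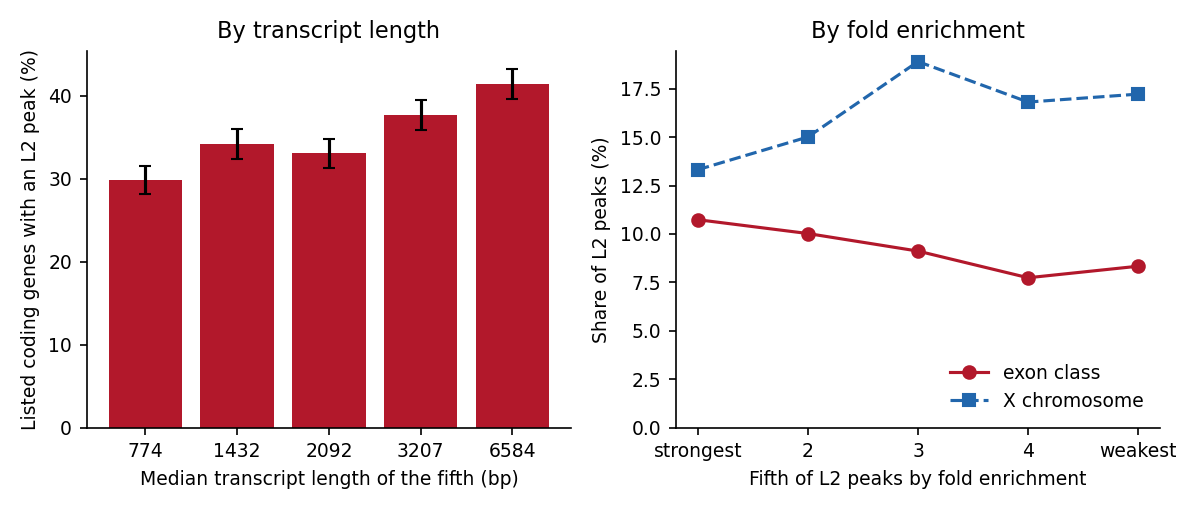
Left, share of listed protein-coding genes with an L2 peak (%, with 95% Wilson intervals) in 5 groups by transcript length, labelled with the median length in bp. Right, share of L2 peaks in exons and on the X chromosome (%) in 5 equal groups by fold enrichment. The left bars go from 29.8% to 41.4%, and from the strongest to the weakest group the exonic share goes from 10.7% to 8.34% and the X share from 13.3% to 17.2%.

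The timing genes, in whose pathway LIN-14 acts, had 19 L2 peaks at 10 of 24 members (41.7%, 24.5 to 61.2), and 21 of 24 had an L1 peak. Within 1 kb of the start, 4 of 24 had an L2 peak (16.7%), near the 14.3% of coding genes. With a -log10 q of at least 3 the share was 33.3%, against 19.2% of coding genes. With at least 5 it was 8.33%, against 6.10%. The fold enrichments of the 19 peaks, from 1.35 to 1.72, had a median of 1.54, the same as that of all L2 peaks. Of the 19 summits, 18 lay downstream of the assigned start and all 19 lay inside a transcript. For all L2 peaks of coding genes these shares were 74.4% (from the nearest start) and 85.2%. The 19 summits come from only 10 genes. The members are long, with a median transcript of 5424 bp. They include the microRNA genes lin-4, let-7, mir-48, mir-84 and mir-241, to which the shares of coding genes do not apply.

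Of the early timing genes, lin-14 and hbl-1 had L2 peaks. The lin-14 gene itself had 1 peak (X, 11482036 to 11482316) with a fold enrichment of 1.56 and its summit 2059 bp downstream of the assigned start, against 4 L1 peaks. The hunchback-like gene hbl-1, which acts after lin-14 in L2, had 3 peaks of 1.35, 1.5 and 1.54, with summits 1455 to 2276 bp downstream. No L2 peak was assigned to lin-28, lin-46 or the microRNA gene lin-4. Of the genes that act late, lin-41, a TRIM-NHL protein gene repressed by let-7, had 1 peak in exon 7 of 16 with 1.65 (I, 9338536 to 9338910). The zinc finger gene lin-29, which drives the larva-to-adult switch, had 2 peaks, of 1.62 and 1.53, with summits 259 and 1264 bp downstream of their assigned starts. None was assigned to let-7, mir-48, mir-84 or mir-241, nor to the period-like gene lin-42, which had 7 L1 peaks.

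The highest peaks of the list were at a microRNA cofactor. The TRIM-NHL gene nhl-2 had 3 peaks whose near edges lay 1110 to 2271 bp downstream of its start, of 1.72, 1.65 and 1.4. Both Argonaute genes of the microRNA pathway had peaks, alg-1 with 1.58 and 1.55 and alg-2 with 1.48 in exon 6 of 7. The F-box gene dre-1 had 3 peaks from 1.5 to 1.56, and blmp-1, the zinc finger factor that dre-1 is known to degrade, had 2, of 1.54 and 1.51. The last member, the zinc finger gene sea-2, had 1 peak of 1.43, and its summit, at -300 bp, was the only one of the list upstream of the start. None of the other members, among them daf-12, puf-9 and kin-20, had an L2 peak.

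Over the whole L2 list, genes of the gut had the highest share of the 38 groups. Of 38 intestinal genes, 20 had an L2 peak (52.6%, 37.3 to 67.5), and 18 had one within 1 kb of the start (47.4%). The order depended on the threshold: with a -log10 q of at least 3 pharyngeal genes still had 10 of 20, above the 47.4% of intestinal genes. With at least 5, transmitter identity genes (25%) and Wnt pathway genes (18.5%) stood above intestinal genes (18.4%). The median transcript of the intestinal genes, 1652 bp, is shorter than that of coding genes with a peak. The leading members were asp-1 (1.99), fat-6, which encodes a stearoyl-CoA desaturase (1.8), and cpr-5, a cathepsin B-like protease gene (1.74). Of their summits, those of fat-6 and cpr-5 lay 769 and 392 bp downstream of the start. C-type lectins, secreted proteins many of which are known to respond to microbes, had peaks at 118 of 239 genes (49.4%, 43.1 to 55.7). For 92 of the 239 a peak lay within 1 kb of the start (38.5%). The highest were clec-80 (1.90, with the peak 925 bp wide), clec-7 (1.82) and clec-95 (1.79).

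Further families of secreted or lipid enzymes had high shares, and were chosen after gene names of the peaks had been seen. Astacin metalloproteases (nas) had L2 peaks at 24 of 36 genes (66.7%, 50.3 to 79.8), aspartyl proteases (asp) at 11 of 17, lysozymes (lys) at 6 of 10, cathepsin B-like proteases (cpr) at 5 of 8 and fatty acid desaturases (fat) at 6 of 7. Several asp, cpr, lys and fat genes are also members of the intestinal group, so these shares are not independent of it. Glutathione S-transferases (gst) had 16 of 44 (36.4%, 23.8 to 51.1), above the 24.5% of all coding genes. Other families stood near or below it: UDP-glycosyltransferases (ugt) had 16 of 67, cytochromes P450 (cyp) 12 of 74 and transthyretin-like genes (ttr) 9 of 58.

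Pharyngeal genes had peaks at 10 of 20 members, led by eat-2, a nicotinic receptor subunit gene (1.84), and myo-2, a pharyngeal myosin heavy chain gene (1.66). Germ line genes had them at 19 of 43 (44.2%, 30.4 to 58.9), with the Notch receptor gene glp-1 at 1.87, pie-1 at 1.78 and pos-1 at 1.67. Small RNA pathway genes had 20 of 45 (44.4%, 30.9 to 58.8), with rde-10 at 1.77, the Argonaute genes alg-4 at 1.75 and hrde-1 at 1.7. Within 1 kb of the start the small RNA share was 13.3% (6 of 45), below the 14.3% of coding genes. Pharyngeal genes had 30% within 1 kb and germ line genes 25.6%. Body wall muscle genes had 13 of 35, with the alpha integrin gene pat-2 at 1.82 and the vinculin gene deb-1 at 1.65. Hypodermis and seam cell genes had 11 of 33, with the zinc finger gene lin-26, a regulator of epithelial fate, at 1.85, bro-1 at 1.79, and nhr-23, a nuclear receptor gene of molting, at 1.75.

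Signalling groups varied. TGF-beta pathway genes had L2 peaks at 9 of 20 (45%, 25.8 to 65.8), with the ligand genes dbl-1, which sets body size, at 1.67 and daf-7, which blocks dauer entry, at 1.54, and the cofactor gene sma-9 at 1.58. Their median transcript is 4749 bp. Hedgehog-related and patched-related genes had 32 of 85 (37.6%), led by grl-5 and ptr-23 at 1.78 each. Within 1 kb of the start 12 of these 85 had a peak (14.1%), near the 14.3% of coding genes. Wnt pathway genes had 9 of 27, led by apr-1, the APC homologue, at 1.77 and the Frizzled receptor genes cfz-2 at 1.76 and lin-17 at 1.73. The cfz-2 peak was distal, at -5015 bp from the start, and the lin-17 peak lay in exon 6 of 9. In the insulin pathway 3 of 15 had an L2 peak while all 15 had an L1 peak: the receptor gene daf-2 (1.74), the FOXO gene daf-16 (1.60) and the kinase adaptor gene aap-1 (1.49). Insulin-like peptides had 4 of 39 (10.3%).

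Neuronal groups ranged from 22.6% to 39.0%. Ligand-gated channels had L2 peaks at 28 of 110 genes (25.5%), with the nicotinic subunit gene lev-1 at 1.85. Chemoreceptors had them at 327 of 1351 (24.2%, 22 to 26.6), FLP neuropeptides at 7 of 31, NLP neuropeptides at 19 of 82 and neuropeptide receptors at 33 of 107 (30.8%), with frpr-3 at 1.92. Synaptic and pan-neuronal genes had 10 of 31, led by ehs-1 and cla-1. Transmitter identity genes had 6 of 20, among them mod-5, the serotonin transporter gene, at 1.78, cha-1, the choline acetyltransferase gene, at 1.74, and unc-47. Without peaks in the exon or intron of another gene that count was 5, since the unc-47 peaks lie in mua-3. Adhesion and axon guidance genes had 23 of 59 (39.0%, 27.6 to 51.7), with the calsyntenin gene casy-1 at 1.76, the perlecan gene unc-52 at 1.72 and the plexin gene plx-2 at 1.68. Their median transcript, 7729 bp, was the longest among the groups.

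Transcription factor families ranged from 23.4% to 35.9%. Nuclear hormone receptors had peaks at 64 of 274 genes (23.4%), homeobox genes outside the Hox group at 26 of 94 (27.7%), T-box, forkhead and GATA factors at 15 of 48 and bHLH factors at 14 of 39 (35.9%, 22.7 to 51.6). Members with a peak included nhr-217 (1.86), tbx-41 (1.75), the homeobox gene ceh-49 (1.72), the Otx-like gene ceh-36 (1.68), the Meis-like gene unc-62 (1.66) and the Max-like gene mxl-3 (1.74). Of 6 Hox genes, php-3 (1.63) and ceh-13 (1.55, distal) had an L2 peak and 5 had an L1 peak.

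Histone, MATH and BATH, and ribosomal protein genes had shares below the background. Mitochondrial respiratory chain genes (6 of 44, 13.6%, 6.40 to 26.7) and collagens were lower too, but their intervals include the 24.5% of coding genes. Histone genes had an L2 peak at 1 of 81 (1.23%, 0.218 to 6.67), at his-70. MATH and BATH genes had 7 of 72 (9.72%, 4.79 to 18.7). Of the 72, 49 had an L1 peak (68.1%), near the 69.2% of all coding genes. Ribosomal protein genes had 8 of 73 (11%), none within 1 kb of the start, and 2 of the 8 were left out when peaks in the exon or intron of another gene were dropped. Collagens had 35 of 178 (19.7%, 14.5 to 26.1), with col-103 at 1.78, and 131 had an L1 peak (73.6%). Within 1 kb of the start the collagen share was 13.5%, near that of coding genes. F-box genes had 77 of 322 (23.9%), near the background, and 17.4% had a peak within 1 kb of the start against 14.3% of coding genes. An L2 peak was assigned to 36.5% of the fbxb genes and 16.5% of the fbxa genes, a split singled out after the values were seen. Histone and some F-box genes have near-identical copies, and how reads that fit several copies were treated is not stated in the labels or headers, so their counts are uncertain. MicroRNA genes, to be read against the 13.3% of all annotated genes, had 39 of 258 (15.1%), among them mir-8187 (1.92), mir-270 (1.88) and mir-58.1 (1.8), the last with its summit 51 bp downstream of the start, and piRNA genes 300 of 15363 (1.95%). These genes are short and many lie within other genes. The 13.3% takes in the 15363 piRNA genes, whose low share pulls it down. It therefore does not place microRNA genes above the remaining genes.

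**Figure D5:**
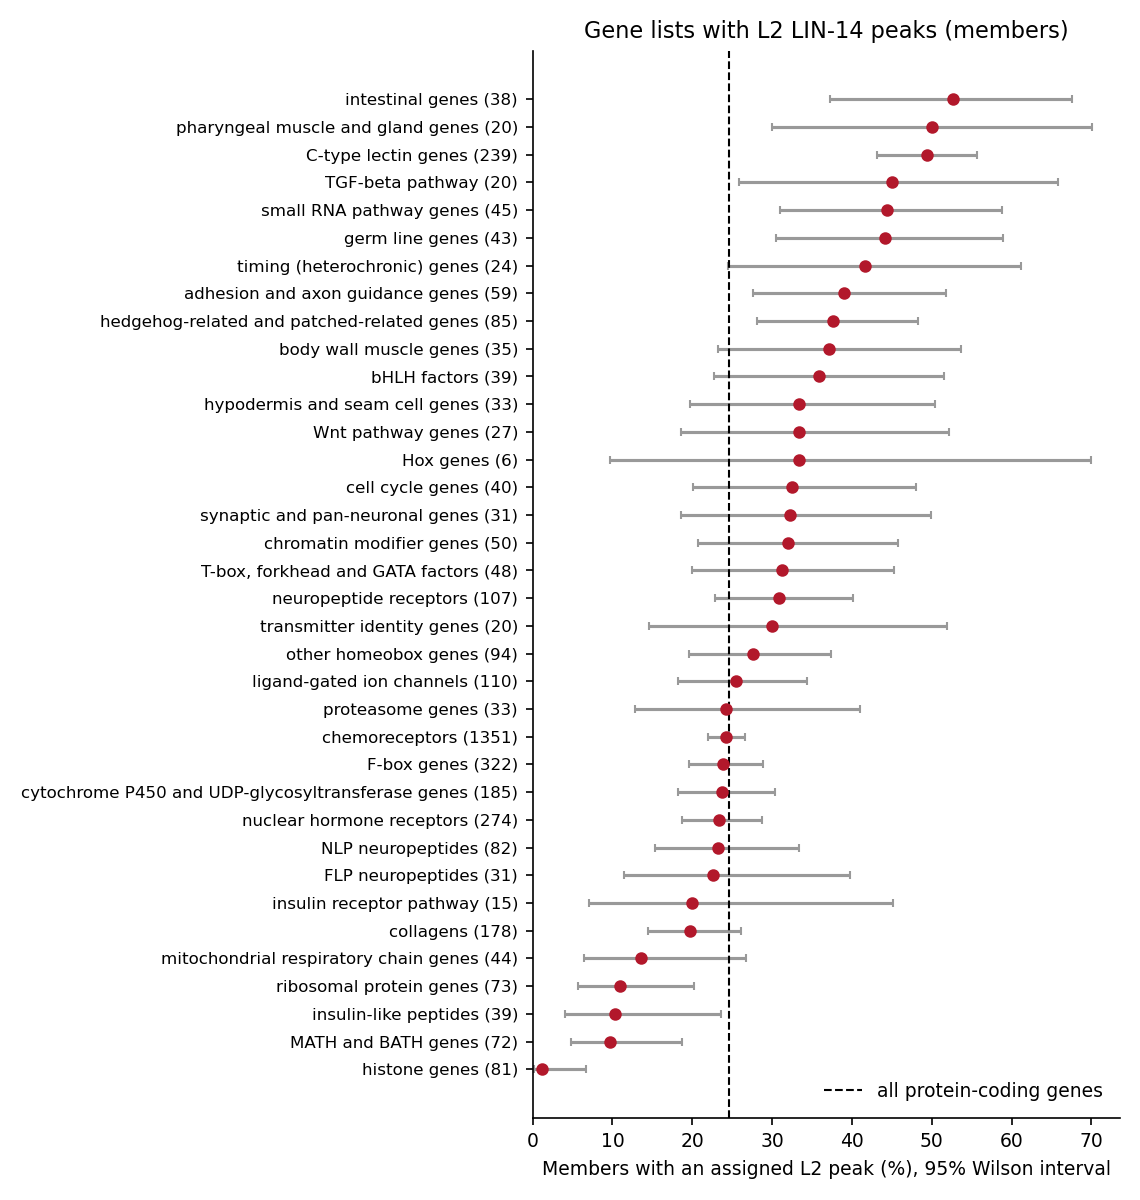
Share of each gene group, without the microRNA and piRNA groups, with an assigned L2 peak (horizontal axis, %, points with 95% Wilson intervals). The number of members stands in brackets, and the dashed line is the share of all protein-coding genes (24.5%). Intestinal genes (52.6%), pharyngeal genes and C-type lectins (49.4%) stand at the top and histone genes (1.23%) at the bottom. The timing genes include microRNA genes, for which the dashed line is no background.

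Nearly all L2 peaks were at places that also had an L1 peak. Of 8333 L2 peaks, 8151 overlapped an L1 peak by at least 1 bp (97.8%, 97.5 to 98.1). Their summits lay a median of 44 bp from the L1 summit (interquartile range 17 to 111), and 95.2% of the L2 peaks were narrower than their L1 peak. Of the 100 highest L2 peaks, 72 overlapped a peak among the 1000 highest of L1. L1 peaks covered 13.6 Mb and L2 peaks 2.41 Mb.

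The 182 L2 peaks without an L1 counterpart were weak and small. Their median fold enrichment was 1.45 and their median width 207 bp, against 1.54 and 249 bp for the rest. Of these 182, 3.30% were in exons, and 69.8% (62.8 to 76.0) had the summit inside a transcript. The highest lay at the non-coding T13H10.10 (1.72), at F15B10.3 and at the autophagy gene atg-10 (both 1.71). Next were esyt-2, an extended synaptotagmin gene (1.68), and vab-2, an ephrin gene (1.67, in an intron of B0524.9, at -5614 bp from the vab-2 start).

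The authors' deposited table of the L2 against L1 comparison is the only replicated measurement, and a site with a false discovery rate (FDR) above 0.3 is not listed in it. Of the L2 peaks, 5961 (71.5%) overlapped a listed site in the authors' deposited table, and of the exonic ones 83.8% did. In the authors' deposited table, 41.4% of all 14675 listed sites were lower in L2 and 0.123% higher at an FDR below 0.05. Among the 5683 listed sites with an L2 peak in the authors' deposited table, 2147 were lower (37.8%, 36.5 to 39.0) and 4 higher, and the median log2 fold was -0.42. For the 8992 listed sites without an L2 peak the authors' deposited table gave 43.8% lower and a median log2 fold of -0.46. The peak calls and the comparison use the same L2 libraries, so this difference was not tested.

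Within sites that had an L2 peak, the authors' deposited table had 29.9% lower on X (26.9 to 32.9) and 39.3% on the autosomes (37.9 to 40.6). According to the authors' deposited table, the share was 43.1% for the sites with an exonic L2 peak, and 37.5% for those in the class within 1 kb of a start. For the timing genes, 15 listed sites in the authors' deposited table overlapped an L2 peak and 6 of them were lower. Those were at nhl-2 (log2 folds of -0.71 and -0.60 in the authors' deposited table), alg-2 (-0.74), dre-1 (-0.58), lin-41 (-0.51) and hbl-1 (-0.49). At lin-14 itself the authors' deposited table gave a log2 fold of -0.27 with an FDR of 0.222. The highest L2 peak, at fbxb-72, and that of asp-1 overlapped no listed site of the authors' deposited table, whereas the peak at F19G12.12 had a log2 fold of -0.92 and that at R09A1.3 -1.05 in the authors' deposited table.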

How the data were processed

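The tools that the submitters' processing notes name, with no role given, are ChIPseeker, DiffBind, MACS2, BWA and SAMtools. Neither labels nor headers state versions, the genome build or which libraries served as control. Peak names show that the libraries of 1 stage were filtered and merged, without outliers. The deposited peak lists give each peak a score, a fold enrichment (ratio) over control and a -log10 q-value. The deposited comparison gives, per the file headers, log2 concentrations, their log2 fold (L2 minus L1) and a p-value with its FDR.

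The members and gene lists were chosen with earlier results of these data known. Files of each stage were joined by peak name. The 3 L2 peaks absent from the annotated table are 2 mitochondrial peaks and the first peak of the list, which stands in the header line. Distances and classes are the authors', from the nearest peak edge. Distances from summits, transcript membership, the 100 bp grid between the first and last L1 peak of each chromosome, clusters and overlaps were computed. Symbols and gene types came from RefSeq WBcel235, to which 8323 of 8333 L2 peaks matched, and none of its coordinates were used. List members other than microRNA and piRNA genes were limited to protein-coding genes where picked by name pattern. Shares have 95% Wilson intervals. No test was made, because no value per library was at hand and peaks are not replicates. Depth per library is unknown.

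Genes were named by rule: the 20 coding genes with the highest L2 peaks, up to 3 per list, timing genes with a peak, the 10 genes with the most peaks, the 10 highest exonic peaks, 5 intronic and 5 distal ones, the 10 highest without L1 overlap and the 10 widest. Others are said to be chosen later. Overlap and interval functions were checked against direct computation on simulated intervals. The software was SciPy 1.17.1, pandas 2.3.3 and NumPy 2.4.6 under Python 3.11.15, with matplotlib 3.10.9 for plots.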

Additional observations from a re-analysis of the deposited data

Results flagged for a closer look

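The L2 peak list held 2 peaks on the mitochondrial chromosome that the annotated table leaves out, at 28 to 2386 and 2502 to 13292. Both had a fold enrichment of 1.4 and a -log10 q-value of 5.95, and so did the 3428 bp peak at the ribosomal RNA gene rrn-2.1, the widest annotated L2 peak, with a fold enrichment of 1.4. Mitochondrial and ribosomal DNA are present in many copies per cell. Control samples have no value here, so no background level could be set beside these peaks, and what gave rise to them was not tested.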

How the results depend on the processing

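No paired analysis was possible because the files hold 1 merged peak list per stage and no value per library, and leaving out single replicates could not be run for the same reason. With a -log10 q of at least 5, the L2 list fell to 1705 peaks over 590 kb, with a median width of 285 bp, a median fold enrichment of 1.7, 29.97% of summits upstream of the assigned start (31.6% in all), 10.3% in exons, 13.8% on X (16.2% in all) and an X to autosome ratio per Mb of 0.744. With at least 3, the median width was 255 bp and the median fold enrichment 1.58. Per protein-coding gene the X ratio was 1.23, so its direction depends on the denominator. The share within 1 kb of a start was 44.3% from the summit and 48.0% for coding genes alone. The share of coding genes with an L2 peak was 14.3% within 1 kb, and 19.2% and 6.10% at the thresholds of 3 and 5. The overlap with L1 was 59.5% at a reciprocal overlap of 50%, 96.8% for the summit inside the L1 peak and 55.7% against an equal number of L1 peaks. At an FDR below 0.01, 1.02% of listed sites with an L2 peak were lower in the authors' deposited table. Settings chosen after seeing the data put 80.8% of summits inside a transcript at the threshold of 5 and 85.2% without non-coding assignments. Causes were not tested, apart from the smaller lists that each threshold makes. Of 38 gene groups 22 stood above the coding share, and 15 of these did so within 1 kb of a start, 20 at the threshold of 3 and 15 at 5. The timing genes, which include microRNA genes, are counted among the 22. The groups lost within 1 kb were the Hox, hedgehog-related and patched-related, ligand-gated channel, transmitter identity, synaptic, small RNA and chromatin modifier groups. Gained within 1 kb were nuclear hormone receptors, chemoreceptors, F-box genes, proteasome genes and the cytochrome P450 and UDP-glycosyltransferase group.

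The limits are those of merged lists: no replicate error, unknown depth, no untagged control, and whole larvae. Gene groups rest on assignment to the nearest start, which for exonic peaks was another gene than the one holding the exon in 50.8%. The grid and transcript shares rest on listed transcripts alone, which were listed because a peak or site was assigned to them.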
